A study of Homo sapiens with 12 samples.

Results

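The genes described here are 36 named genes of the inflammatory response: 11 chemokines, 12 other cytokines, 4 subunits and 4 inhibitors of the transcription factor NF-κB, and 5 further NF-κB targets. They were matched by gene symbol to the Ensembl identifiers of the expression table, and all 36 were found among its 62703 identifiers. RNA was sequenced from HK2 cells, an immortalised human renal proximal tubular epithelial line, in 12 libraries, 3 in each of 4 groups. NG cells were kept in 5.5 mM glucose and given a control vector. HG cells were kept in 50 mM glucose, and no group is labelled as an osmotic control, although the text of the study describes the NG medium as one with mannitol. The si-FGF9 cells were kept in 5.5 mM glucose and transfected with a small interfering RNA against fibroblast growth factor 9 (FGF9), and no non-targeting small interfering RNA is described. The HG+OE-FGF9 cells were kept in 50 mM glucose and received a viral vector that overexpresses FGF9. The study names a lentivirus in its methods and an adenovirus in its results. No vector is described for the HG cells or the si-FGF9 cells. HG versus NG can thus differ in the vector as well as in glucose, and HG+OE-FGF9 versus HG in the vector as well as in FGF9. Likewise, si-FGF9 versus NG can differ in the vector as well as in the small interfering RNA. These cannot be told apart here. All 4 groups come from 1 cell line. Nothing in the labels says that the 3 libraries of a group came from separate cultures, so that the spread between them, and every p-value drawn from it, may be technical only.

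NF-κB is a family of dimeric transcription factors. In resting cells the dimers are held in the cytoplasm by inhibitor of κB (IκB) proteins, and signals from the receptors for tumour necrosis factor, interleukin-1 or bacterial products lead to the destruction of these inhibitors. The freed dimers bind κB sites in promoters and switch on chemokine, cytokine and adhesion genes, together with genes of their own inhibitors. Tubular epithelial cells of the injured or diabetic kidney are known to make such chemokines and cytokines, which attract leukocytes to the space between the tubules.

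Expression was deposited as TPM, the number of transcripts of a gene in every 1000000 transcripts of the library, a length-corrected level, so that levels can be compared between genes and a lower value can mean less RNA of the gene or more of others. In RNA from whole cultures, fewer cells of a type and less RNA per cell cannot be told apart. FGF9 itself was listed at 0 in all 9 NG, HG and si-FGF9 libraries and at 3.34, 4.03 and 3.82 TPM in HG+OE-FGF9, so that the overexpression label could be checked and the knockdown label could not. The 14639 genes that reached 1 TPM in 3 or more libraries were tested by limma on the scale of log2(TPM + 1), and a gene was called differentially expressed where its log2 fold change was at least 1 in either direction with an unadjusted p under 0.01, the thresholds of the study. The median gene stood at a log2 fold change of -0.39 in HG versus NG, -0.79 in si-FGF9 versus NG and -0.13 in HG+OE-FGF9 versus HG. These shifts followed base composition. When genes were ranked by the GC content of their longest transcript and divided into 10 equal bins, the median for HG versus NG was -1.22 in the bin of lowest GC and 0.30 in that of highest GC, and for si-FGF9 versus NG -1.79 and 0.20. The 36 genes span 33.4% to 65.4% GC, and each comparison below is therefore also given after a correction that removed the trend with GC content from every library. HG replicate 3 and HG+OE-FGF9 replicate 3 stood farthest from the other libraries of their groups, with a median absolute deviation of 0.59 and 0.50 on the log2(TPM + 1) scale over the genes described here, against 0.07 to 0.34 for the other 10 libraries.

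Of the keratin and other epithelial markers 5 of 6 were expressed in at least 3 libraries, and KRT8 reached a mean of 516 TPM over the 12 libraries. The exception was CDH1, the gene of E-cadherin, which the study measured as protein. It stayed at or below 0.28 TPM in every library. Of 12 proximal tubule markers 6 stayed below 1 TPM in every library, among them LRP2, CUBN and SLC22A6, which was listed at 0 throughout. Of 10 leukocyte markers 6 stayed below 1 TPM, with the pan-leukocyte gene PTPRC at no more than 0.07 TPM and TYROBP listed at 0. CD68, at 108 to 159 TPM, made up most of the leukocyte sum of 111 to 168 TPM. The 4 endothelial markers stayed at or below 0.1 TPM. The fibroblast markers summed to 62.5 to 89.2 TPM for NG, 17.2 to 41.0 for HG, 11.6 to 21.0 for si-FGF9 and 11.6 to 22.5 for HG+OE-FGF9. This order runs beside that of many genes below, and its part in their differences was not tested. COL1A2, COL3A1 and PDGFRB stayed below 1 TPM, and lumican, LUM, carried most of the sum.

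Of the 36 genes, 26 passed the filter and 10 did not. The 10 were the chemokines CXCL1, CXCL5, CXCL6, CXCL10 and CCL2, the cytokines IL1A, IL1B, IL33 and TNF, and the prostaglandin synthase PTGS2. None of them exceeded 1.24 TPM, and no fold change is given for them. CXCL1 was listed at 0 in 11 libraries and at 0.15 TPM in NG replicate 3, and IL33 likewise at 0.12 TPM in that library alone. TNF, the founding ligand of the pathway, stayed between 0 and 0.2 TPM, CXCL6 at or below 0.05, PTGS2 at or below 0.24 and CCL2 at or below 0.52. CXCL5 (0.49 to 0.72 TPM in NG), CXCL10 (0.6 to 0.81) and IL1A (0.86 to 1.24) were higher in every NG library than in any library of the other groups, where they stayed at or below 0.21, 0.58 and 0.47 TPM. IL1B ranged from 0.48 to 1.01 TPM in NG and from 0.03 to 0.55 TPM elsewhere. CCL20 passed the filter only through 3 NG and 2 HG libraries, the groups where it was high, so that its lower calls in si-FGF9 and HG+OE-FGF9 below are counted but nothing is read from them, and TRAF1 had at least 1 TPM in 6 of 12. Among the 26 genes, the mean TPM was highest in NG for 18 and lowest in si-FGF9 for 18, and over all genes tested those shares were 58.8% and 54.9%.

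**Figure D1:**
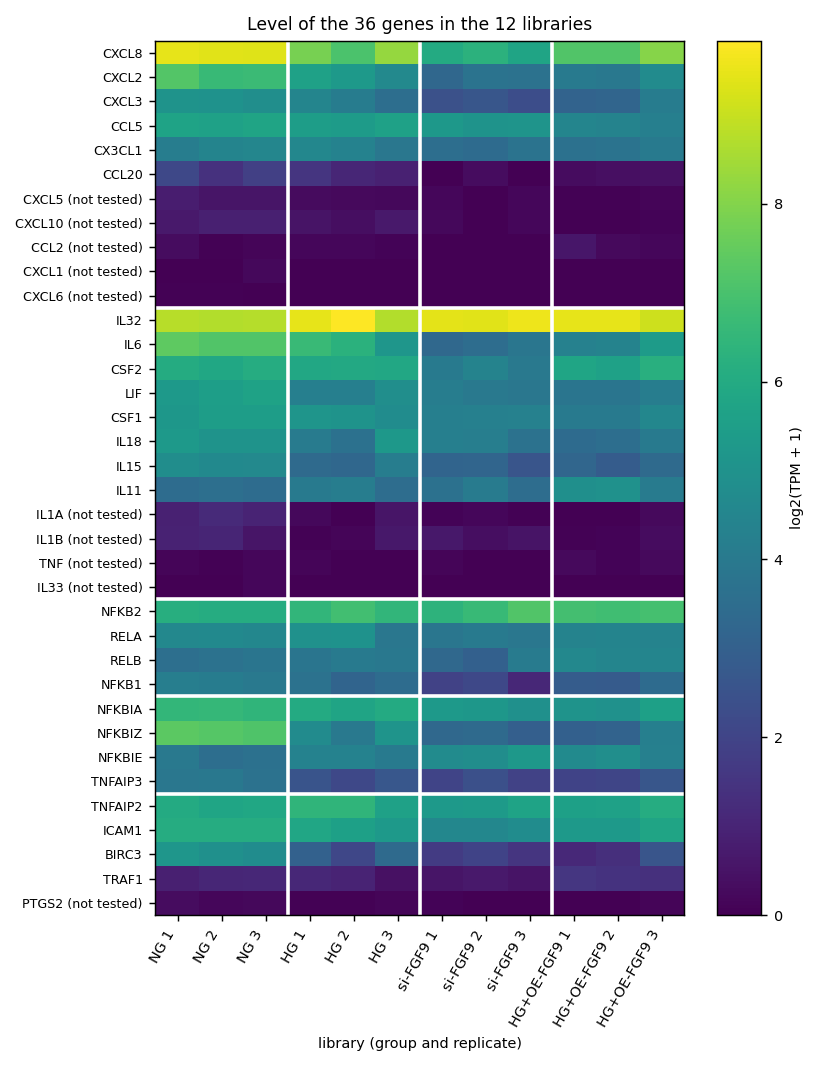
Level of the 36 genes in the 12 libraries as log2(TPM + 1), grouped from top to bottom into chemokines, cytokines, NF-κB subunits, inhibitors and other targets, with the groups of libraries separated by white lines. CXCL8 and IL32 are the brightest rows, CXCL8 darkens from NG to si-FGF9 while IL32 does not, and the 10 genes marked as not tested stay dark in every library.

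Of the 7 CXC chemokines, 6 lie in a cluster on chromosome 4, and the promoters of 5 of these share the core of a κB motif. The genes of the cluster, in GENCODE 29 coordinates on GRCh38, run from CXCL8 (chr4:73740506-73743716) through CXCL6, CXCL1, CXCL5 and CXCL3 to CXCL2 (chr4:74097035-74099293). RefSeq promoters, 250 bases before to 50 after each start on GRCh38.p14, were found for 27 of the 36 genes, and 15 of the 27 (55.6%) held a κB motif on either strand, against 13.3% of 27305 genes with a promoter in the table. Counted by promoter, the share was 45.9% of 37 against 11.3% of 35116. The 30 bases around the match nearest to the start are shown for the CXC genes because they carry the same core while their levels, given below and above, run from 0 to 147 TPM. They are written on the strand of the gene with the motif in capitals, where matches on both strands overlap and are joined.
CXCL1 (chr4:73869304-73869333): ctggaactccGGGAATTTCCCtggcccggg
CXCL2 (chr4:74099254-74099283): ctggagctccGGGAATTTCCCtggcccggg
CXCL3 (chr4:74038749-74038778): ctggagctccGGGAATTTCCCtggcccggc
CXCL5 (chr4:73998749-73998778): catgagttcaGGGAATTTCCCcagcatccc
CXCL6 (chr4:73836578-73836607): cctgagttcaGGGAATTTCCCcagcatccc
The first base of the motif lay 78 or 79 bases before the start in CXCL1, CXCL2 and CXCL3 and 90 or 91 bases before it in CXCL5 and CXCL6. The promoter of CXCL10 held other matches to the motif, and that of CXCL8 held none, which says nothing about binding. A match is a description of the letters, not a site shown to be used in these cells.

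CXCL8, the main neutrophil attractant of epithelial cells, was the most abundant chemokine, at 704, 671 and 647 TPM in the NG libraries, 226, 132 and 311 TPM in the HG libraries, 63.2, 79.2 and 53.2 TPM in the si-FGF9 libraries and 142, 141 and 265 TPM in the HG+OE-FGF9 libraries. The NG libraries lay above all others and the si-FGF9 libraries below all others, while HG and HG+OE-FGF9 overlapped. CXCL2, a second neutrophil attractant, was found at 147, 98.8 and 103 TPM in the NG libraries, 48.2, 39.5 and 24.01 TPM in the HG libraries, 8.73, 12.3 and 12.2 TPM in the si-FGF9 libraries and 15.6, 14.5 and 25.99 TPM in the HG+OE-FGF9 libraries, in the same order and with the same overlap. CXCL3, its close neighbour on the chromosome, stood at 32.6, 31.3 and 27.9 TPM in the NG libraries, 21.2, 16.5 and 10.9 TPM in the HG libraries, 4.41, 5.17 and 4.07 TPM in the si-FGF9 libraries and 7.77, 8.21 and 16.5 TPM in the HG+OE-FGF9 libraries, again with NG above and si-FGF9 below all other libraries. CXCL2 shared 9.24% of the 50-base stretches of its longest transcript with CXCL1 or CXCL3, and CXCL3 shared 3.02% with CXCL2, so that a part of their reads could have been divided between them.

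CCL5, which attracts T cells and monocytes, followed another order, with 50.7, 48.9 and 51.9 TPM in the NG libraries, 43.4, 41.5 and 48.8 TPM in the HG libraries, 36.7, 32.3 and 33.2 TPM in the si-FGF9 libraries and 21.3, 20.3 and 18.2 TPM in the HG+OE-FGF9 libraries. Here all 4 groups were apart, NG highest and HG+OE-FGF9 lowest. Repeats found in 554 other genes made up 17.5% of its 50-base stretches. CX3CL1, or fractalkine, a membrane-bound attractant of monocytes, ranged over 16.8, 20.7 and 21.7 TPM in the NG libraries, 22.4, 19.5 and 13.8 TPM in the HG libraries, 10.7, 9.95 and 12.6 TPM in the si-FGF9 libraries and 11.7, 12.3 and 14.97 TPM in the HG+OE-FGF9 libraries, and each group overlapped the next in order. CCL20, the ligand of CCR6, was low, at 3.37, 1.62 and 2.65 TPM in the NG libraries, 1.83, 1.07 and 0.85 TPM in the HG libraries, 0, 0.27 and 0 TPM in the si-FGF9 libraries and 0.25, 0.34 and 0.36 TPM in the HG+OE-FGF9 libraries, and NG and HG lay above si-FGF9 and HG+OE-FGF9.

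IL32, a cytokine that induces other cytokines, had the highest mean of the 36 genes over the 12 libraries and in each group but NG, where CXCL8 was higher, at 436, 416 and 429 TPM in the NG libraries, 699, 911 and 415 TPM in the HG libraries, 689.7, 663 and 768 TPM in the si-FGF9 libraries and 713, 715 and 542 TPM in the HG+OE-FGF9 libraries. NG lay below si-FGF9 and HG+OE-FGF9, and HG spread over all other groups because its replicate 3 was as low as NG. IL6, the principal acute-phase cytokine, stood at 167, 142 and 143 TPM in the NG libraries, 101, 77.2 and 34.5 TPM in the HG libraries, 8.9, 10.3 and 13.5 TPM in the si-FGF9 libraries and 18.8, 20.03 and 40.6 TPM in the HG+OE-FGF9 libraries. NG was highest and si-FGF9 lowest without overlap, and the HG range ran from below the top of HG+OE-FGF9 up to 101 TPM. In the annotation 2 genes on the opposite strand, AC073072.1 and STEAP1B, cover 20.7% of the exonic bases of IL6, and the strand setting of the counting is not given in the sources used here, so that reads from the opposite strand cannot be told apart.

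**Figure D2:**
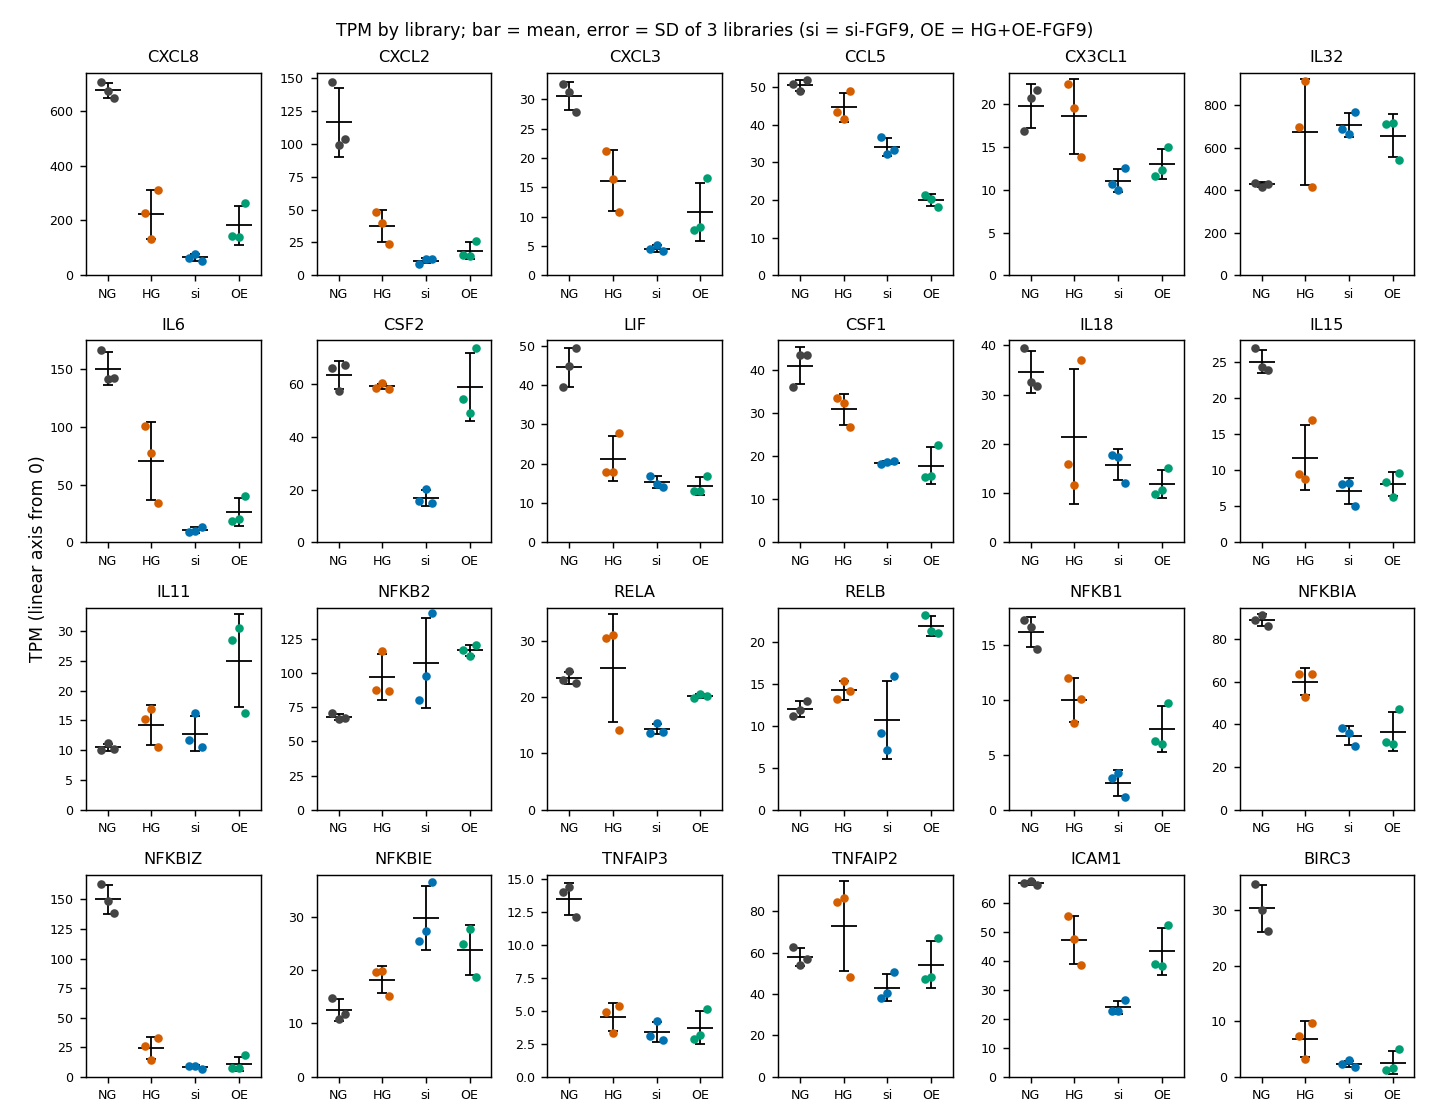
TPM in each of the 12 libraries for the 24 genes with a mean of at least 5 TPM in a group, on linear axes from 0, with points for libraries, a bar for the mean and error bars for the SD of 3 libraries. NG points lie above all others for CXCL8, CXCL2, IL6 and NFKBIZ, si-FGF9 alone lies apart for CSF2, HG+OE-FGF9 alone lies lowest for CCL5 and highest for RELB.

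CSF2, which codes for the granulocyte-macrophage colony-stimulating factor, set si-FGF9 apart, with 66.1, 57.3 and 67.2 TPM in the NG libraries, 58.7, 60.4 and 58.3 TPM in the HG libraries, 15.6, 20.3 and 14.9 TPM in the si-FGF9 libraries and 54.4, 48.98 and 73.6 TPM in the HG+OE-FGF9 libraries. The 3 other groups overlapped, between 49.0 and 73.6 TPM, and si-FGF9 did not exceed 20.3 TPM. CSF1, the macrophage growth factor, was found at 36.2, 43.5 and 43.6 TPM in the NG libraries, 33.5, 32.5 and 26.8 TPM in the HG libraries, 18.1, 18.6 and 18.9 TPM in the si-FGF9 libraries and 15.3, 15.4 and 22.7 TPM in the HG+OE-FGF9 libraries, with NG above HG and both above the other 2 groups. LIF, an IL-6 family cytokine, stood at 39.5, 44.9 and 49.3 TPM in the NG libraries, 18.03, 17.99 and 27.9 TPM in the HG libraries, 16.96, 14.8 and 14.04 TPM in the si-FGF9 libraries and 13.04, 13.2 and 16.9 TPM in the HG+OE-FGF9 libraries, with NG highest and HG next, and its exons overlap an antisense gene, LIF-AS1.

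IL15, which sustains lymphocytes, was found at 26.96, 24.4 and 23.95 TPM in the NG libraries, 9.44, 8.87 and 17.1 TPM in the HG libraries, 8.1, 8.21 and 5 TPM in the si-FGF9 libraries and 8.39, 6.36 and 9.63 TPM in the HG+OE-FGF9 libraries, and NG alone was apart. IL18, an inflammasome product, stood at 39.5, 32.5 and 31.7 TPM in the NG libraries, 15.8, 11.6 and 37.04 TPM in the HG libraries, 17.7, 17.4 and 12.2 TPM in the si-FGF9 libraries and 9.82, 10.7 and 15.2 TPM in the HG+OE-FGF9 libraries, where HG replicate 3 lay among the NG libraries and the other 2 HG libraries among the si-FGF9 and HG+OE-FGF9 values. IL11, a fibroblast-activating member of the IL-6 family, ran the other way, with 10.1, 11.2 and 10.1 TPM in the NG libraries, 15.2, 16.9 and 10.5 TPM in the HG libraries, 11.6, 16.2 and 10.5 TPM in the si-FGF9 libraries and 28.5, 30.5 and 16.2 TPM in the HG+OE-FGF9 libraries. All HG+OE-FGF9 libraries lay above all NG libraries, and neighbouring groups overlapped.

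Among the NF-κB subunits, NFKB1 and RELA form the canonical dimer and NFKB2 and RELB the non-canonical dimer. NFKB1 stood at 17.3, 16.7 and 14.7 TPM in the NG libraries, 11.98, 7.93 and 10.1 TPM in the HG libraries, 2.85, 3.38 and 1.14 TPM in the si-FGF9 libraries and 6.3, 6.01 and 9.77 TPM in the HG+OE-FGF9 libraries, with NG highest and si-FGF9 lowest without overlap. RELA was found at 23.1, 24.6 and 22.6 TPM in the NG libraries, 30.6, 31.02 and 14.1 TPM in the HG libraries, 13.7, 15.3 and 13.9 TPM in the si-FGF9 libraries and 19.9, 20.5 and 20.3 TPM in the HG+OE-FGF9 libraries, and HG replicate 3, at 14.1 TPM, lay at the si-FGF9 level while the other 2 HG libraries were the highest of all. NFKB2, the most abundant subunit, ranged over 70.7, 66.5 and 66.97 TPM in the NG libraries, 87.7, 116 and 87.1 TPM in the HG libraries, 80.3, 98.1 and 144 TPM in the si-FGF9 libraries and 117, 113 and 121 TPM in the HG+OE-FGF9 libraries, and all NG libraries lay below all others. RELB stood at 11.2, 11.9 and 12.99 TPM in the NG libraries, 13.2, 15.4 and 14.2 TPM in the HG libraries, 9.11, 7.14 and 16.04 TPM in the si-FGF9 libraries and 23.3, 21.4 and 21.1 TPM in the HG+OE-FGF9 libraries, with HG+OE-FGF9 above every other library, and 1 of 3 si-FGF9 libraries above HG.

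The 4 inhibitors followed more than 1 order. NFKBIZ, a nuclear IκB protein that helps to switch on IL6, stood at 163, 148 and 139 TPM in the NG libraries, 25.8, 14.6 and 32.9 TPM in the HG libraries, 9.09, 9.51 and 6.85 TPM in the si-FGF9 libraries and 7.04, 7.76 and 18.01 TPM in the HG+OE-FGF9 libraries, and the lowest NG library lay far above the highest of the others, HG replicate 3. NFKBIA, the IκB protein that retains RELA, was found at 89.2, 91.6 and 86.2 TPM in the NG libraries, 63.8, 52.9 and 63.6 TPM in the HG libraries, 38.3, 36.2 and 30 TPM in the si-FGF9 libraries and 31.96, 30.6 and 47.2 TPM in the HG+OE-FGF9 libraries, with NG above HG and HG above the other 2 groups. TNFAIP3, the deubiquitinase A20, stood at 14.1, 14.4 and 12.2 TPM in the NG libraries, 4.93, 3.35 and 5.37 TPM in the HG libraries, 3.06, 4.24 and 2.82 TPM in the si-FGF9 libraries and 2.89, 3.17 and 5.16 TPM in the HG+OE-FGF9 libraries, with NG alone apart. NFKBIE, a further IκB protein, had the reverse order, with 14.8, 10.9 and 11.8 TPM in the NG libraries, 19.6, 19.8 and 15.2 TPM in the HG libraries, 25.5, 27.3 and 36.6 TPM in the si-FGF9 libraries and 24.97, 27.8 and 18.7 TPM in the HG+OE-FGF9 libraries, and NG lay below all other libraries.

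Of the remaining targets, BIRC3, an inhibitor of apoptosis that also acts as a ubiquitin ligase in the pathway, was found at 34.7, 30.01 and 26.3 TPM in the NG libraries, 7.37, 3.24 and 9.68 TPM in the HG libraries, 2.28, 2.95 and 1.84 TPM in the si-FGF9 libraries and 1.2, 1.5 and 4.99 TPM in the HG+OE-FGF9 libraries, with NG apart from all others. ICAM1, the leukocyte adhesion molecule, stood at 66.9, 67.5 and 66.2 TPM in the NG libraries, 55.5, 47.5 and 38.7 TPM in the HG libraries, 22.7, 22.7 and 26.4 TPM in the si-FGF9 libraries and 38.95, 38.3 and 52.6 TPM in the HG+OE-FGF9 libraries, with NG highest and si-FGF9 lowest. Antisense genes cover 23.6% of the exonic bases of ICAM1, as for IL6. TNFAIP2, a target of tumour necrosis factor, ranged over 62.96, 54.3 and 56.9 TPM in the NG libraries, 84.8, 86.6 and 48.1 TPM in the HG libraries, 38.3, 40.3 and 50.7 TPM in the si-FGF9 libraries and 47.1, 48.1 and 67.2 TPM in the HG+OE-FGF9 libraries, with overlap between neighbouring groups. TRAF1, an adaptor of the receptors, stayed near the filter at group means of 1.003 TPM for NG, 0.83 for HG, 0.5 for si-FGF9 and 1.75 for HG+OE-FGF9, and every library of the last exceeded those of the other groups.

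The first comparison, HG versus NG, sets high glucose beside normal glucose, with a control vector described for NG alone. NFKBIZ, BIRC3, CXCL8, CXCL2, TNFAIP3, IL6, IL15 and LIF were lower in HG, with mean TPM ratios of NG to HG from 2.09 (LIF) to 6.14 (NFKBIZ), and no gene was called higher. These 8 were 2 of 6 chemokines, 3 of 8 cytokines, 2 of 4 inhibitors and 1 of 4 targets tested, and none of the 4 subunits. Among all genes tested 24.4% were called, 22.7% lower and 1.65% higher, against 8 of 26 here. The libraries of the groups did not overlap for 14 genes that were lower in HG and 3 that were higher, and over all genes tested the shares were 46.5% and 10.7%. The median log2 fold change of the 26 genes was -0.54, beside -0.39 over all genes. NFKBIZ changed most (log2 fold change -2.64 ± 0.33 (SE), limma adjusted p = 0.000588), followed by BIRC3 (log2 fold change -2.10 ± 0.39 (SE), limma adjusted p = 0.00177), CXCL8 (log2 fold change -1.68 ± 0.30 (SE), limma adjusted p = 0.00157) and CXCL2 (log2 fold change -1.65 ± 0.28 (SE), limma adjusted p = 0.00135). TNFAIP3 (log2 fold change -1.40 ± 0.23 (SE), limma adjusted p = 0.00110), IL15 (log2 fold change -1.08 ± 0.26 (SE), limma adjusted p = 0.00505) and LIF (log2 fold change -1.05 ± 0.19 (SE), limma adjusted p = 0.00165) were closer to the threshold. IL6 passed at a log2 fold change of -1.20 ± 0.36 (SE) with a limma adjusted p of 0.0170, and missed the threshold without HG replicate 3 (-0.76, unadjusted p 0.0258) and without any of the 3 NG libraries. IL15 was no longer called without HG replicate 1 or 2, nor LIF without HG replicate 1 or 2 or NG replicate 3, while CXCL3 was called without HG replicate 1 (-1.13) and IL18 without HG replicate 3 (-1.28).

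After the GC correction 4 of the 8 calls of HG versus NG remained, those of NFKBIZ (-2.11), CXCL2 (-1.10), TNFAIP3 (-1.06) and LIF (-1.05), when 6.84% of all genes were called, 3.06% lower and 3.78% higher. BIRC3 and CXCL8, with 34.8% and 33.4% GC, belong to the bin of genes lowest in GC, of which 61.9% were called lower before the correction, and their corrected log2 fold changes were -0.996 and -0.60. IL6 moved to -0.53, and IL15, at 38.7% GC, to 0.01, with a 95% confidence interval of -0.33 to 0.34. The median over the 26 genes became -0.09. With median-of-ratios scaling, which centres the median gene, the split of calls was 2 higher (IL32 and NFKB2) and 4 lower (NFKBIZ, BIRC3, CXCL8 and CXCL2), and 6 genes that had not been called changed sign. Over all genes that split was 7.43% higher and 8.27% lower.

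**Figure D3:**
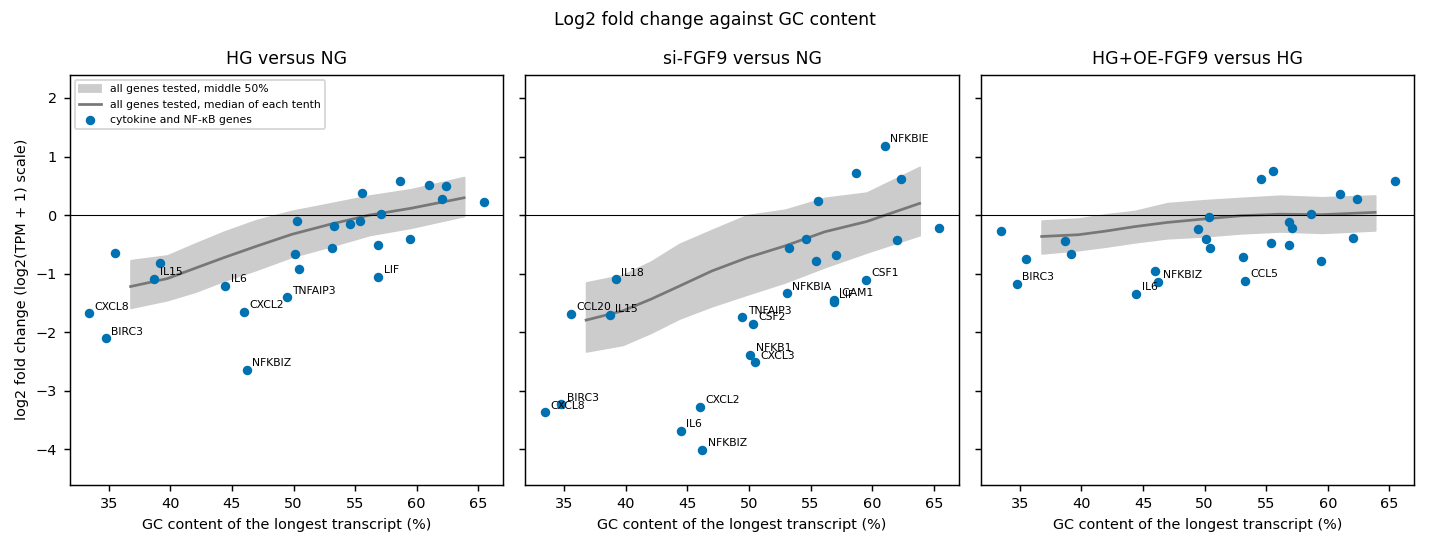
Log2 fold change (log2(TPM + 1) scale) against GC content of the longest transcript for the 26 genes tested (points) over the median (line) and middle 50% (band) of all genes in 10 bins of GC content, for the 3 comparisons of the study, with names at changes of at least 1. The line rises from -1.22 to 0.30 in HG versus NG and from -1.79 to 0.20 in si-FGF9 versus NG, IL15 lies near it in both, and NFKBIZ, CXCL2 and IL6 lie below the band in si-FGF9 versus NG.

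The second comparison, si-FGF9 versus NG, sets cells given the small interfering RNA beside cells given a control vector, both in normal glucose. Here 17 of 26 genes were called, 16 lower and NFKBIE higher, when 47.6% of all genes tested were called, 42.2% lower and 5.36% higher. The lower genes were 4 of 6 chemokines, 6 of 8 cytokines, 3 of 4 inhibitors, 2 of 4 targets and 1 of 4 subunits, with CCL20 among the chemokines through the filter described above. The libraries did not overlap for 21 genes lower and 3 higher in si-FGF9, against 62.1% and 14.3% of all genes. The median log2 fold change of the 26 was -1.39, beside -0.79 over all genes. NFKBIZ (log2 fold change -4.00 ± 0.33 (SE), limma adjusted p = 5.93e-06) and IL6 (log2 fold change -3.69 ± 0.36 (SE), limma adjusted p = 9.42e-06) changed most, to 17.7 and 13.8 times lower mean TPM. The neutrophil attractants followed, CXCL8 (log2 fold change -3.37 ± 0.30 (SE), limma adjusted p = 7.39e-06), CXCL2 (log2 fold change -3.27 ± 0.28 (SE), limma adjusted p = 6.56e-06) and CXCL3 (log2 fold change -2.51 ± 0.28 (SE), limma adjusted p = 1.6e-05). BIRC3 (log2 fold change -3.23 ± 0.39 (SE), limma adjusted p = 2.44e-05) and the subunit NFKB1 (log2 fold change -2.38 ± 0.27 (SE), limma adjusted p = 1.88e-05) were also lower by over 2 on the log2 scale.

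Smaller decreases were called in si-FGF9 for CSF2 (-1.86), TNFAIP3 (-1.74), IL15 (-1.71), CCL20 (-1.68), LIF (-1.49), ICAM1 (-1.45), NFKBIA (-1.34), CSF1 (-1.10) and IL18 (-1.10), all log2 fold changes against NG with limma adjusted p between 8.03e-06 and 0.0117. NFKBIE was the 1 gene called higher (log2 fold change 1.18 ± 0.20 (SE), limma adjusted p = 0.000235), from a mean of 12.5 to 29.8 TPM. IL18 missed the threshold when any single NG or si-FGF9 library was left out. Of the genes not called, IL32 (0.72) and NFKB2 (0.61) had positive log2 fold changes, and CX3CL1 (-0.78), RELA (-0.68) and CCL5 (-0.56) negative ones. After the GC correction 13 of the 17 calls remained, when 24.3% of all genes were called, 12% lower and 12.3% higher, and the median of the 26 became -0.71. The 4 lost were CCL20, IL15, IL18 and NFKBIA, and IL18 turned to 0.52. The correction is additive on the log scale and moves genes listed at 0 as well, so that its value for CCL20 (-0.05), at 0 in 2 of 3 si-FGF9 libraries, has little meaning. The corrected shares over all genes hold such calls too. FGF9, listed at 0 in every NG, HG and si-FGF9 library, was called higher after the correction in si-FGF9 versus NG (1.63) and in HG versus NG (1.09). How many of the corrected calls are of this kind was not tested. With median-of-ratios scaling 9 of the 17 calls remained and the split was 8 lower and 4 higher (NFKBIE, IL11, IL32 and NFKB2), against 17.5% and 19.2% of all genes.

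The third comparison, HG+OE-FGF9 versus HG, sets cells with the FGF9 vector beside cells for which no vector is described, both in high glucose. IL6, NFKBIZ and CCL5 were lower in HG+OE-FGF9, and no gene was called higher. Among all genes tested 5.61% were called, 2.67% lower and 2.94% higher, against 3 of 26 here, and the median log2 fold change was -0.43 beside -0.13 over all genes. The libraries did not overlap for 5 genes lower and 2 higher in HG+OE-FGF9, and over all genes the shares were 9.95% and 12.2%. CCL5 (log2 fold change -1.12 ± 0.13 (SE), limma adjusted p = 0.000491) fell from a mean of 44.6 to 19.9 TPM, the 1 call of the 3 without overlap of libraries, and it remained without any single library. IL6 (log2 fold change -1.35 ± 0.36 (SE), limma adjusted p = 0.0392) and NFKBIZ (-1.13 ± 0.33 (SE), limma adjusted p = 0.0522) overlapped between the groups, and the adjusted p of NFKBIZ did not reach 0.05. IL6 was not called without HG replicate 1 or 2 or HG+OE-FGF9 replicate 1 or 2, and NFKBIZ not without HG replicate 1 or 3 or HG+OE-FGF9 replicate 1 or 2. The count over the 26 genes ranged from 1 to 6 as single libraries were left out, and the share called over all genes moved with it, from 3.75% without HG+OE-FGF9 replicate 2 to 11% without HG+OE-FGF9 replicate 3. The count was 6 in the latter case, when CXCL2 (-1.20), BIRC3 (-1.63) and IL11 (1.03) were added. CXCL2 was also called without HG replicate 3 (-1.23) and BIRC3 without HG replicate 2 (-1.56).

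Genes not called in this comparison had fold changes of both signs. CSF1 (-0.78, limma adjusted p = 0.0166) and NFKBIA (-0.72, limma adjusted p = 0.0241) had an adjusted p under 0.05 with log2 fold changes under the threshold, and their libraries did not overlap. BIRC3 (-1.17) and CXCL2 (-0.95) overlapped. RELB (0.59), TRAF1 (0.61) and IL11 (0.75) had positive log2 fold changes, the first 2 without overlap. For CXCL8 the log2 fold change was -0.27 with a 95% confidence interval of -0.93 to 0.39, so that the direction was not determined. CSF2 was at -0.03, with an interval of -0.40 to 0.35. The 3 calls remained after the GC correction, when 5.21% of all genes were called, 2.18% lower and 3.03% higher, with CCL5 at -1.18, IL6 at -1.20 and NFKBIZ at -1.06. With median-of-ratios scaling CCL5 (-0.96) and NFKBIZ (-0.98) fell short of the threshold, IL6 remained, and BIRC3 was added, when 1.78% of all genes were called lower and 3.64% higher.

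**Figure D4:**
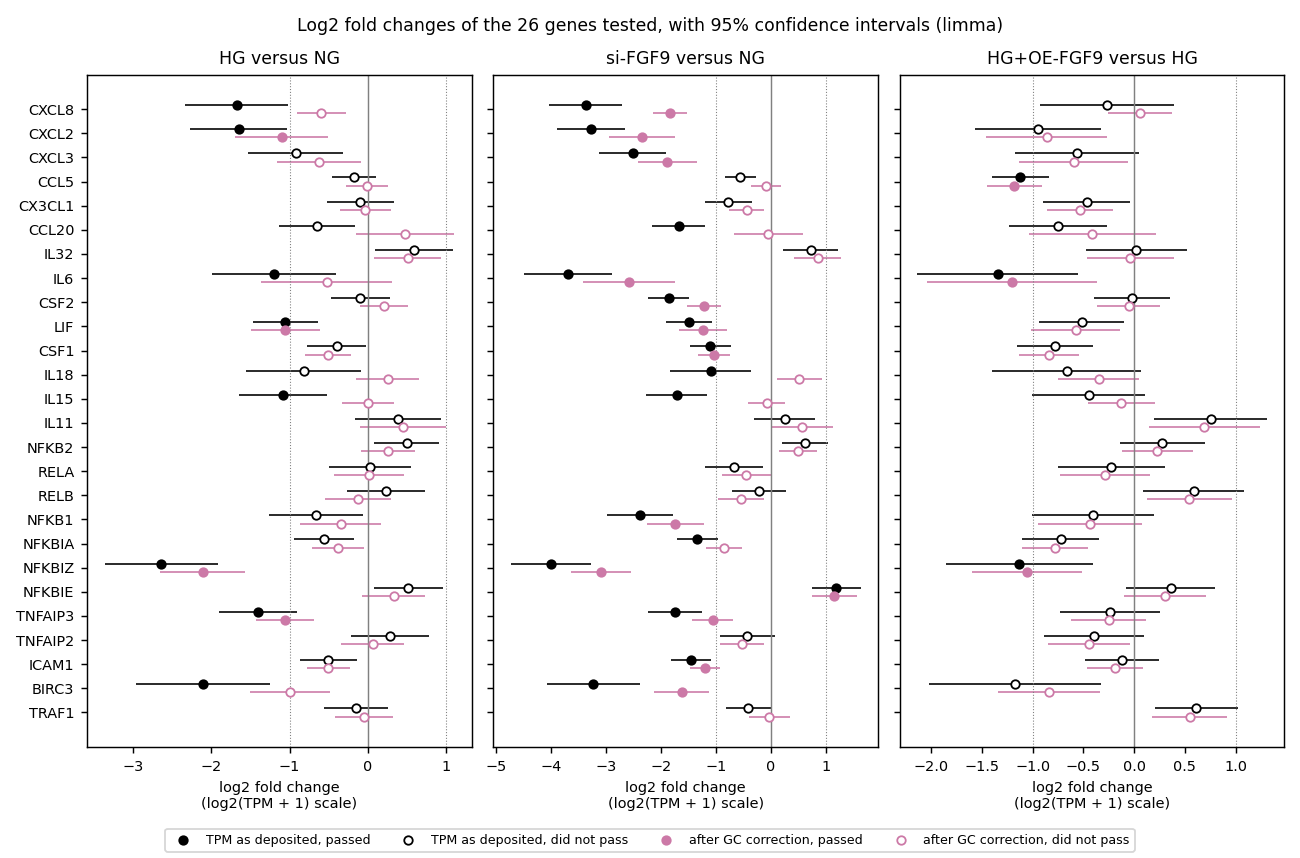
Log2 fold change (log2(TPM + 1) scale) of the 26 genes tested in the 3 comparisons of the study, with 95% confidence intervals from limma, as deposited (black) and after the GC correction (pink), filled where a gene was called and open where it was not, with dotted lines at -1 and 1. NFKBIZ is filled in all 3 comparisons in both colours, and in HG versus NG the pink points of CXCL8, BIRC3, IL6 and IL15 lie nearer to 0 than the black points.

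The other 2 contrasts share their libraries with the first 3. In HG+OE-FGF9 versus NG 16 of 26 genes were called, 15 lower and IL11 higher, when 39.7% of all genes were called, 32.7% lower and 7.01% higher. Libraries did not overlap for 18 genes lower and 6 higher in HG+OE-FGF9, against 53.3% and 21.2% of all genes. IL11 rose (log2 fold change 1.14 ± 0.25 (SE), limma adjusted p = 0.00197), and CCL5 was lower here (log2 fold change -1.30 ± 0.13 (SE), limma adjusted p = 2.51e-05) as it was against HG. The call of IL11 was lost without HG+OE-FGF9 replicate 2 (0.98). CSF2 was not called in this contrast, at -0.12. After the GC correction 11 of the 16 calls remained, when 23.1% of all genes were called, 11.8% lower and 11.3% higher, and with median-of-ratios scaling 7 remained, in a split of 5 higher and 6 lower. Over all genes that split was 17.8% higher and 16.9% lower, and the genes added as higher were IL32, NFKB2, NFKBIE and RELB.

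In si-FGF9 versus HG 8 of 26 genes were called, all lower in si-FGF9, when 11.1% of all genes were called, 9.67% lower and 1.4% higher. Libraries did not overlap for 16 genes lower and 1 higher in si-FGF9, against 35% and 7.1% of all genes. IL6 was lower (log2 fold change -2.48 ± 0.36 (SE), limma adjusted p = 0.00188), as were CSF2 (log2 fold change -1.76 ± 0.17 (SE), limma adjusted p = 0.000426) and NFKB1 (log2 fold change -1.72 ± 0.27 (SE), limma adjusted p = 0.00251). CXCL8 (-1.69), CXCL2 (-1.62), CXCL3 (-1.59), NFKBIZ (-1.36) and CCL20 (-1.03) made up the rest, with limma adjusted p of 0.0115 or less, CCL20 again having passed the filter only through NG and HG. The 6 genes other than NFKBIZ and CCL20 were also called after the GC correction, when 5.86% of all genes were called, 2.52% lower and 3.34% higher. They were also called with median-of-ratios scaling, which added NFKBIE as higher, when 2.23% of all genes were called lower and 5.77% higher. CSF2 thus differed between si-FGF9 and each group it was compared with here, while its HG and NG libraries overlapped, and its call against NG was lost with median-of-ratios scaling.

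Genes that sit above and beside these in the pathway were read from 4 lists of receptors, adaptors and kinases, further subunits and inhibitors with mRNA decay factors, and further targets. The lists are described by counts and medians, beside the shares and medians of all genes given above. In HG versus NG 4 of 15 receptors, 11 of 22 adaptors and kinases, 7 of 17 regulators and 7 of 19 targets tested were called, all lower, and the medians were -0.70, -0.95, -0.63 and -0.39. Over all genes 24.4% were called, 22.7% lower, with a median of -0.39. In si-FGF9 versus NG the counts were 9, 15, 9 and 8, all lower, with medians of -1.09, -1.50, -1.02 and -0.82. Over all genes 47.6% were called there, 42.2% lower, with a median of -0.79. In HG+OE-FGF9 versus HG the counts were 2, 0, 1 and 4, all lower, with medians of -0.30, -0.23, -0.24 and -0.08. Over all genes 5.61% were called there, 2.67% lower, with a median of -0.13. After the GC correction the calls were 2, 1, 6 and 0 in HG versus NG, then 4, 7, 8 and 3 in si-FGF9 versus NG with 1 of the 8 regulators higher, and 0, 0, 1 and 3 in HG+OE-FGF9 versus HG. The corrected shares over all genes were 6.84%, 24.3% and 5.21% in that order. The receptors LIFR and CSF1R and the kinase JAK2 averaged 2.54, 1.79 and 2.27 TPM in NG, but under 1 TPM in each other group. The receptor IL1R1 averaged 4.19 TPM in NG and 1.70 TPM in HG, but under 1 TPM in si-FGF9 and HG+OE-FGF9. These genes thus passed the filter mainly through the groups where they were high. As for CCL20, any lower call of these genes against NG is counted above, but nothing is read from it.

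Among the receptors, TNFRSF1A, the main receptor of tumour necrosis factor, had the highest mean over the 12 libraries (72.8 TPM), with group means of 96.8 TPM for NG, 80.4 for HG, 49.3 for si-FGF9 and 64.7 for HG+OE-FGF9, and was called in none of the 3 comparisons of the study. LTBR, the lymphotoxin receptor, exceeded it in HG (88.7 TPM) and HG+OE-FGF9 (72.2 TPM). IL6ST, the signal-transducing receptor of IL-6, LIF and IL-11, was the receptor most lowered in HG (log2 fold change -2.09 ± 0.36 (SE), limma adjusted p = 0.00133) and in si-FGF9 (log2 fold change -3.49 ± 0.36 (SE), limma adjusted p = 1.14e-05), although after the GC correction its log2 fold change in HG was -0.97. TLR2, a receptor of bacterial lipoproteins, was the one most lowered in HG+OE-FGF9 versus HG (log2 fold change -1.16 ± 0.34 (SE), limma adjusted p = 0.0514) and was not called there after the correction. TAB2, an adaptor of the kinase MAP3K7, led the adaptors in HG (log2 fold change -1.86 ± 0.29 (SE), limma adjusted p = 0.00104) and in si-FGF9 (log2 fold change -2.99 ± 0.29 (SE), limma adjusted p = 9.36e-06), and its corrected log2 fold change was -0.81 in HG. IRAK1, the kinase of the interleukin-1 receptor, had the highest level of the adaptors and kinases, at a mean of 90.3 TPM over the 12 libraries, although JAK1 exceeded it in NG (136 against 61.6 TPM). IRAK1 was called in none of the 3 comparisons of the study, and it was called higher in HG+OE-FGF9 versus NG (log2 fold change 1.10 ± 0.17 (SE), limma adjusted p = 0.000159), a call lost after the GC correction (0.79).

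ZFP36, which directs cytokine mRNAs to decay, had the largest decrease of its list in HG versus NG (log2 fold change -2.72 ± 0.52 (SE), limma adjusted p = 0.00195), with -2.74 after the GC correction. SOCS3, the feedback inhibitor of IL-6 family receptors, was lower in si-FGF9 versus NG (log2 fold change -3.67 ± 0.31 (SE), limma adjusted p = 6.26e-06) and, with overexpression, against HG (log2 fold change -1.76 ± 0.31 (SE), limma adjusted p = 0.00598), with means of 46.1 TPM for NG, 11.1 for HG, 2.77 for si-FGF9 and 2.89 for HG+OE-FGF9. Its corrected log2 fold changes were -3.64 and -1.82. ZFP36L1 had the highest mean of the list over the 12 libraries, with 441 TPM in NG and 85.1 to 136 TPM in the other groups, although TNIP1 exceeded it in HG+OE-FGF9 (97.2 TPM). VCAM1, an adhesion molecule for leukocytes, changed most among the further targets in all 3 comparisons, with means of 19.6 TPM for NG, 6.64 for HG, 1.91 for si-FGF9 and 1.5 for HG+OE-FGF9, and its call in HG versus NG was lost after the correction (-0.34). The complement component C3 had the highest mean of that list over the 12 libraries, though not within HG+OE-FGF9, where SQSTM1 led (309 TPM). It fell in HG+OE-FGF9 versus HG (log2 fold change -1.09 ± 0.12 (SE), limma adjusted p = 0.000343), from a mean of 390.1 to 183 TPM.

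Promoters of genes outside the CXC cluster are shown for those that the comparisons turn on, with the κB motif in capitals, on the strand of the gene and on GRCh38.p14.
IL6 (chr7:22727117-22727146): tatcaaatgtGGGATTTTCCcatgagtctc
NFKBIZ (chr3:101827757-101827786): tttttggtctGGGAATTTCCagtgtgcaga
NFKBIA (chr14:35404811-35404840): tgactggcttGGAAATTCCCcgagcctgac
TNFAIP3 (chr6:137867194-137867223): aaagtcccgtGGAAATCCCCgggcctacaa
BIRC3 (chr11:102317339-102317368): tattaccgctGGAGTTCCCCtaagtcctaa
IL32 (chr16:3065294-3065323): cctgtactcaGGGAGTTTCCCcagccagct
The motif began 73 bases before the start in IL6, 55 in TNFAIP3, 81 in NFKBIA, 135 in BIRC3, 99 in IL32 and 223 in NFKBIZ. The promoters of CXCL8, CSF2, ICAM1, IL11, RELA, TNFAIP2 and TRAF1 held no match. Those of IL1A, IL1B, IL33, PTGS2 and TNF, which did not pass the filter on expression, held none either. A single pattern of letters was searched, so that κB sites written otherwise are missed. Whether the matches go with the fold changes was not tested. A TATAAA motif was found in 21.6% of the promoters of these genes against 11.5% of all promoters, and an ACTCA motif in 48.6% against 38.0%, each searched on both strands, and no κB match overlapped a match of the other 2 motifs.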

How the data were processed

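RNA sequencing of 12 HK2 libraries was analysed from TPM values that the authors deposited with 2 decimals. They cover 62703 Ensembl identifiers, of which 62625 were matched to a gene symbol. GC content and gene coordinates were taken from GENCODE 29. The submitters' processing notes name Bowtie 0.12.2 and the mouse build mm8, although the identifiers are human, and the quantifier, annotation and strand setting are not given in the sources used here. TPM keeps no read depth, so that depth is unknown and no count test could be run. The number of genes with at least 1 TPM ranged from 11549 to 13949 per library and differed between groups. It was 13795 to 13949 for NG, 12350 to 13111 for HG, 11549 to 12013 for si-FGF9 and 13008 to 13236 for HG+OE-FGF9.

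Values were transformed to log2(TPM + 1), with a pseudocount of 1, which understates the fold changes of low genes. A model with the group as its only term was fitted to all 12 libraries with limma 3.58.1 in R 4.3.3 (moderated test, trend on, two-sided, Benjamini-Hochberg adjustment) over 14639 genes with at least 1 TPM in at least 3 libraries. An exact permutation test of 3 against 3 libraries cannot go below p = 0.1 and was not used. For the GC correction, the deviation of each gene from its mean was modelled in every library as a natural spline of GC content (5 df) and removed, over 14191 genes (96.9%) with a GC content. The scripts were tested on simulated data.

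The 36 genes and the pathway and marker lists were chosen with earlier results of these data known. All 36 are accounted for. Those tested with a mean of at least 5 TPM in a group are given library by library. Of each pathway list the called gene with the largest fold change in each direction of the 3 comparisons of the study is named, with the most abundant gene. Promoter sequences are from RefSeq (GRCh38.p14), and protein sequences were not analysed here. Alternatives were no filter, a filter on the mean, a pseudocount of 0.1, an adjusted p under 0.05, median-of-ratios scaling, the GC correction, a replicate block, a fit on 6 libraries and leaving out each library.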

Additional observations from a re-analysis of the deposited data

How the results depend on the processing

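The count of the 36 genes called in HG versus NG was 8 and became 4 under the GC correction, also together with the replicate block. In HG+OE-FGF9 versus HG the count of 3 became 1 when only the 6 libraries of the comparison were fitted, with CCL5 kept and 4.26% of all genes called against 5.61%, and it ranged from 1 to 6 as single libraries were left out: 1 without HG replicate 1, HG+OE-FGF9 replicate 1 or HG+OE-FGF9 replicate 2, and 6 without HG+OE-FGF9 replicate 3, when 4.52%, 3.86%, 3.75% and 11% of all genes were called. In the other comparisons, leaving out a library gave 6 to 8 calls in HG versus NG (15.3% to 32.4% of all genes), 16 to 17 in si-FGF9 versus NG (45.7% to 48.1%), 14 to 17 in HG+OE-FGF9 versus NG (35.9% to 45%) and 7 to 10 in si-FGF9 versus HG (7.18% to 17.5%). Under the GC correction 3 called fold changes changed sign and were no longer called. IL15 in HG versus NG stood at 0.0062 (95% confidence interval -0.33 to 0.34). IL18 in si-FGF9 versus NG stood at 0.5157 (0.11 to 0.92), and CCL20 in HG+OE-FGF9 versus NG at 0.0599 (-0.57 to 0.69). The cause was not tested. For CCL20, which is low in HG+OE-FGF9, the corrected value has little meaning. The replicate numbers are shared between groups. The correlation of deviations between same-numbered libraries ranged from -0.439 to 0.248, and 2 of 12 libraries correlated best with their own number. With 3 libraries in a group, these values cannot decide whether same-numbered libraries share a culture or batch. The main fit assumed no pairing. With the replicate block the counts were 7, 17, 3, 16 and 8 in the order of the report, when 24%, 47.3%, 5.42%, 39.4% and 10.5% of all genes were called, IL6 being lost from HG versus NG and no other call. Count-based alternatives were not run, because the values are TPM.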
